A study of Homo sapiens with 10 samples.

Results

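The genes described here encode the major histocompatibility complex (MHC) and the machinery of antigen presentation. They were measured in cultured human cells of chronic myeloid leukaemia, in which the BCR-ABL fusion kinase drives growth, and in a subline of these cells that withstands the alkylating drug cyclophosphamide. Probe sets were taken by name: every probe set whose platform symbols all begin with HLA-, and the probe sets of 26 further named genes, from B2M and the transporter and immunoproteasome genes to CD1 genes and HFE. This gave 45 of the 9141 gene symbols on the array, carried by 56 of its 12558 probe sets. Of the 26 named genes, PSME2 was represented only by probe sets that carry a second symbol and was not used here. The groups are 5 arrays of cells labelled sensitive and 5 arrays of cells labelled resistant, all grown in tissue culture medium, each hybridised to an array of its own. The labels name neither the line nor how resistance was raised, and do not say whether replicates were cultured apart, so p-values cover the spread among these arrays alone, and that spread may be technical only.

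MHC class I molecules sit on most nucleated cells. A polymorphic heavy chain (such as HLA-B or HLA-C) or a less variable one (HLA-E, HLA-F, HLA-G) pairs with the light chain B2M and holds a short peptide that the proteasome cut in the cytosol and the TAP transporter carried into the endoplasmic reticulum. Class II molecules (HLA-DR, HLA-DQ, HLA-DP) are typical of B cells, dendritic cells and macrophages. They take peptides from the endosome with the help of the invariant chain CD74 and the exchange factor HLA-DM, and their genes need the coactivator CIITA.

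Promoter sequences of 4 genes are given because these genes carry contrasts described below: HLA-DMA and HLA-DMB encode both chains of HLA-DM and differed in their calls, and B2M and HLA-F had probe sets with resistant arrays all below the sensitive ones. The sequences are from RefSeq (GRCh38.p14), 250 bases before to 50 bases after the gene start, 5′ to 3′ on the gene's strand. Capitals mark matches, on either strand, to ATTGG (the core of the Y box, the site of the NF-Y factor), TGACG (the core of the cAMP response element, which the X2 box resembles) and TTTCNNTT (the core of the interferon-stimulated response element).
HLA-DMA, chr6:32953048-32953347, minus strand: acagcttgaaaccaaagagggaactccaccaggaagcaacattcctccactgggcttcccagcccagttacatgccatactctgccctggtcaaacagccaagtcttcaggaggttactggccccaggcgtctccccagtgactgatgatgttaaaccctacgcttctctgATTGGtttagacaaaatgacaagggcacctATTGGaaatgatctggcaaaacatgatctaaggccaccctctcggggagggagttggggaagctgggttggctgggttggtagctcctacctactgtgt
HLA-DMB, chr6:32940979-32941278, minus strand: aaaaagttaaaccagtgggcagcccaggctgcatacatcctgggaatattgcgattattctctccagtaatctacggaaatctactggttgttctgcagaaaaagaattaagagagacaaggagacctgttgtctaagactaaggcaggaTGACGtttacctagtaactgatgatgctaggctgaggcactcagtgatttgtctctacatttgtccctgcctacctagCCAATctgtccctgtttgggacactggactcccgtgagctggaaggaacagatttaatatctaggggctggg
B2M, chr15:44711267-44711566, plus strand: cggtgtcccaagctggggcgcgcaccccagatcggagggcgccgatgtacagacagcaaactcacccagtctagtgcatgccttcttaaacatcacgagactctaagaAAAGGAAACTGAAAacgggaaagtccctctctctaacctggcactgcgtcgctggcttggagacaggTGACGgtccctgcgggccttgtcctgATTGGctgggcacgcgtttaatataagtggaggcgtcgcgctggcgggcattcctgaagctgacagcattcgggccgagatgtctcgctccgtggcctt
HLA-F, chr6:29723184-29723483, plus strand: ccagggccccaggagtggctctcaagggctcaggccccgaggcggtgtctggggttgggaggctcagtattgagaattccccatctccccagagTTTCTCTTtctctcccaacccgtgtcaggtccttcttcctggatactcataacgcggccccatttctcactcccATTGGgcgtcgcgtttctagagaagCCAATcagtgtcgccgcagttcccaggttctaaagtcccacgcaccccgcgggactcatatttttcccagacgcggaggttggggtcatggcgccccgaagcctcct

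In the HLA-DMA promoter ATTGG began at -79 and at -49 relative to the gene start, and the other motifs were not found in this window. HLA-DMB had ATTGG on the opposite strand at -22 and TGACG at -100. B2M had ATTGG at -49, TGACG at -75 and a pair of overlapping matches to the interferon motif, on the opposite strand, at -142 and -136, so the run of capitals there is longer than the motif. HLA-F had ATTGG at -82 and, on the opposite strand, at -57, and the interferon motif at -156. Promoters were in the table for 36 of the 45 symbols, 50 promoters in all, since some genes have several. ATTGG was in 56.0% of these and in 34.6% of all 35116 promoters, TGACG in 32.0% and 24.6%, and TTTCNNTT in 52.0% and 22.8%. In the 4 promoters printed, ATTGG was in all 4, TGACG in 2 and TTTCNNTT in 2. The promoters of HLA-E, HLA-DRA and CIITA were not used here. These are letter matches, not sites shown to be bound.

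Each array gave 1 signal per probe set, a linear intensity. Arrays were on a common scale (2% trimmed means of 2501.33 to 2501.51), and between 51.0% and 61.3% of probe sets lay above an array's negative control limit. That limit is the 95th percentile of 32 control probe sets without a human target and lay between 319.7 and 739.8. Of 7 measured myeloid progenitor genes 3 (CD34, SPI1 and CSF3R) were above the limit on all 5 sensitive arrays, CSF2RA on 2, MPO and FUT4 on 1 each and KIT on none. On the resistant arrays CD34 was above it on 4, MPO on 2 and the other 5 genes on none. CSF3R was called lower in resistant arrays (at least 1.38-fold, adjusted p = 0.00189). Uncalled were SPI1, with a log2 difference of -1.07 (adjusted p = 0.0529), and CSF2RA, with -0.92 (adjusted p = 0.0967).

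Differences are resistant minus sensitive on the scale log2(signal + 114.8), tested with limma across all 12558 probe sets, and a probe set was called at a Benjamini-Hochberg adjusted p under 0.05. All adjusted p-values below are from this fit. Of the 56 probe sets 4 were called higher in resistant arrays (7.14%, against 4.42% of all probe sets): HLA-E, HLA-DMA, CD1D and 1 of the 2 probe sets of HLA-DPB1. Lower calls numbered 0 (against 2.99% of all probe sets). At an unadjusted p under 0.05 there were 5 higher (8.93%, against 10.2% of all probe sets) and 6 lower (10.7%, against 7.69%). The counts are small and near the background. Of the 4 called probe sets, HLA-E and HLA-DMA were above the limit in resistant arrays throughout, and the other 2 were dim in both groups. The median log2 difference of the 56 was -0.04, beside 0.03 for all probe sets, and 15 of the 56 were above the limit on no array. Among the 30 that were above the limit on 3 or more arrays of a group, 2 were called higher (6.67%, against 6.78% of all probe sets as bright) and 0 lower (against 4.75%).

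**Figure D1:**
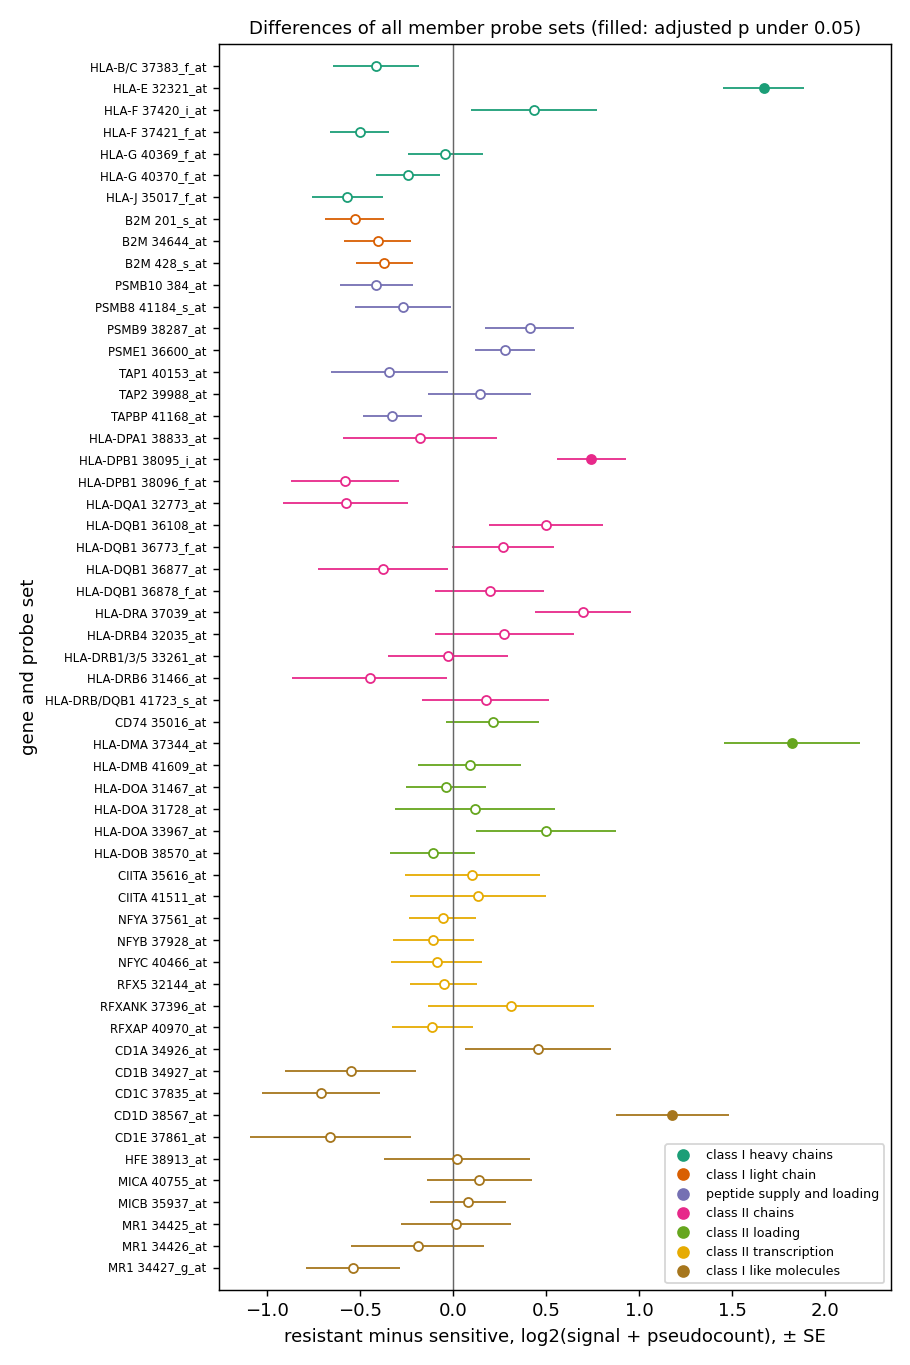
Resistant minus sensitive difference of each of the 56 probe sets on the log2(signal + 114.8) scale, with bars for the standard error of the limma fit, coloured by role. The filled points, called at an adjusted p under 0.05, are HLA-E, HLA-DMA, CD1D and 1 HLA-DPB1 probe set, and all 4 lie to the right of 0.

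Among class I heavy chains HLA-E stood out by its call. HLA-E, whose product presents leader peptides of other class I chains to receptors of natural killer cells, gave signals of 3816, 3140, 2411, 3039 and 3410 on the sensitive arrays. On the resistant arrays it gave 12629, 7415, 8137, 10575 and 13624. Every resistant array was above every sensitive one. The means were 3163 ± 517 and 10476 ± 2711 (SD, n = 5 each), a log2 difference of 1.67 (SE 0.22), or 3.18-fold, with an adjusted p of 0.000393. The call was kept under all 18 alternatives, at log2 differences between 1.54 and 1.78.

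The other class I heavy chain probe sets that were bright on all arrays, 5 of them, had negative differences, between -0.57 and -0.04, and none was called. HLA-F, a class I molecule with little polymorphism, gave 5329, 4726, 4215, 4731 and 4698 on sensitive arrays in the brighter of its 2 probe sets. The resistant arrays gave 3290, 2846, 3252, 3413 and 3814, all below the lowest sensitive one. The log2 difference was -0.50 (SE 0.16, adjusted p = 0.0879). HLA-J, a class I pseudogene, had means of 4322 ± 776 and 2868 ± 446 and a log2 difference of -0.57 (SE 0.19, adjusted p = 0.110). Its highest resistant signal, 3265, was just under its lowest sensitive signal, 3269. The probe set shared by HLA-B and HLA-C had 16620 ± 3708 and 12609 ± 3242 (log2 difference -0.41, adjusted p = 0.395), with overlapping groups. HLA-G, known for its expression at the maternal-fetal interface, is read by 2 probe sets, with differences of -0.04 and -0.24 on the log2 scale (adjusted p = 0.956 and 0.547). All of these except that of HLA-E and the dim HLA-F probe set carry the suffix _f_at, by which the manufacturer marks probes that match several members of a gene family. The signals of HLA-F, HLA-G, HLA-J and HLA-B with HLA-C may therefore include transcripts of one another and of other family members, and were not separable here. The second, dim HLA-F probe set was above the limit on 1 resistant array and had a log2 difference of 0.44 (adjusted p = 0.580).

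B2M, the shared light chain, is measured by 3 probe sets of the same gene, which are not independent. The first gave 104731, 82999, 75197, 90127 and 92569 on sensitive arrays. It gave 59523, 60095, 57188, 65293 and 65481 on resistant arrays, with no overlap, and a log2 difference of -0.53 (SE 0.16, adjusted p = 0.0738). The second had means of 48916 ± 8001 and 36765 ± 4877 (log2 difference -0.41, adjusted p = 0.259), and its groups overlapped. The third had 85582 ± 7093 and 66260 ± 5405 (log2 difference -0.37, adjusted p = 0.225), without overlap. None of the 3 was called. Of the 18 alternatives, 4 called the first B2M probe set lower (adjusted p from 0.00277 to 0.174 over all 18) and 1 the third (0.0297 to 0.378), while 3 called HLA-F (0.0271 to 0.195) and 2 HLA-J (0.0452 to 0.240). Over all 56 probe sets the resistant arrays lay wholly below the sensitive ones in 4 (7.14%, against 3.56% of all probe sets), 2 of B2M and those of HLA-F and HLA-J, and wholly above in the 4 called ones (against 4.94%). The 4 lower ones are not independent, since 2 read B2M and the others may read one another's transcripts. All 4 were bright on every array, and the share among probe sets as bright was not taken.

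**Figure D2:**
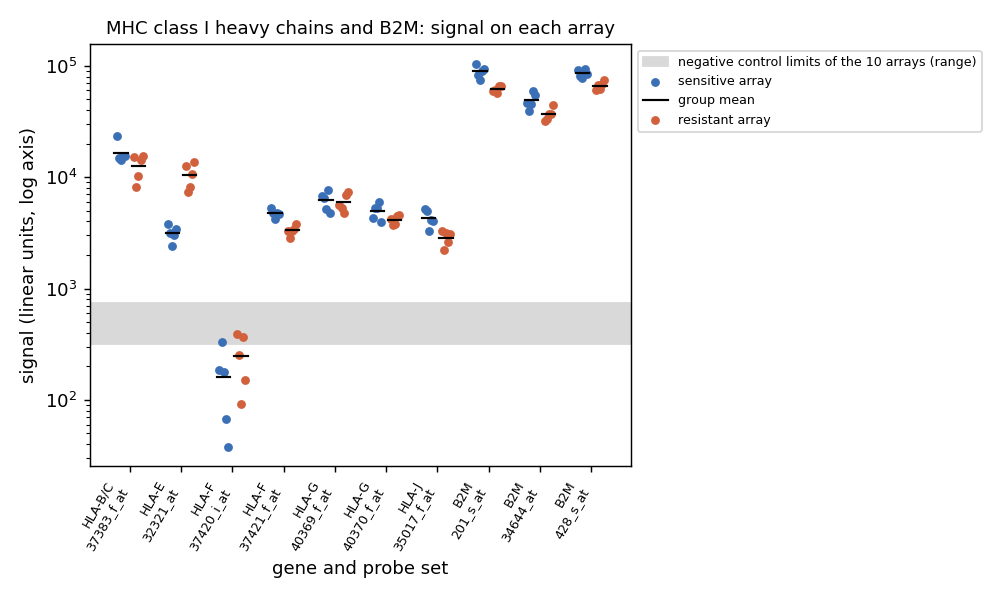
Signal of each class I heavy chain and B2M probe set on each array (log axis); points are arrays, short black lines are group means of 5 arrays, and the grey band is the range of the negative control limits. HLA-E resistant arrays, 7415 to 13624, lie above all its sensitive arrays, 2411 to 3816, while the bright HLA-F probe set and 2 of the B2M probe sets show resistant arrays below all sensitive ones.

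Genes that make and load class I peptides were bright for the most part and none of their 7 probe sets was called in either direction; 0 had an unadjusted p under 0.05. The catalytic subunits PSMB8, PSMB9 and PSMB10 replace their constitutive counterparts in the immunoproteasome. PSMB9 gave 7223, 4926, 5153, 9138 and 7847 on sensitive arrays. On resistant arrays it gave 9088, 8361, 6012, 10692 and 11501 (log2 difference 0.41, SE 0.24, adjusted p = 0.422), with overlapping groups. PSMB10 had 6031 ± 1456 and 4435 ± 525 (log2 difference -0.41, adjusted p = 0.303). PSMB8 had 7014 ± 2460 and 5586 ± 1095 (log2 difference -0.27, adjusted p = 0.674). PSME1, a subunit of the proteasome activator PA28, had 16103 ± 1681 and 19532 ± 1867 (log2 difference 0.28, adjusted p = 0.419). In the 3 immunoproteasome subunits the differences thus had no common sign.

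TAP1 and TAP2 form the peptide transporter. TAP1 had 981 ± 262 and 798 ± 341 (log2 difference -0.34, adjusted p = 0.659), and resistant replicate 5, at 265, was the only array on which it was not above the limit. TAP2 was above the limit on 1 resistant array only, with 161 ± 90.0 and 190 ± 110 (adjusted p = 0.868). TAPBP, tapasin, which bridges class I molecules to the transporter, gave 6436, 6200, 6164, 5692 and 6996 on sensitive arrays. It gave 6014, 5021, 4788, 4738 and 4528 on resistant arrays (log2 difference -0.33, SE 0.16, adjusted p = 0.314). Only resistant replicate 1 of TAPBP reached into the sensitive range.

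**Figure D3:**
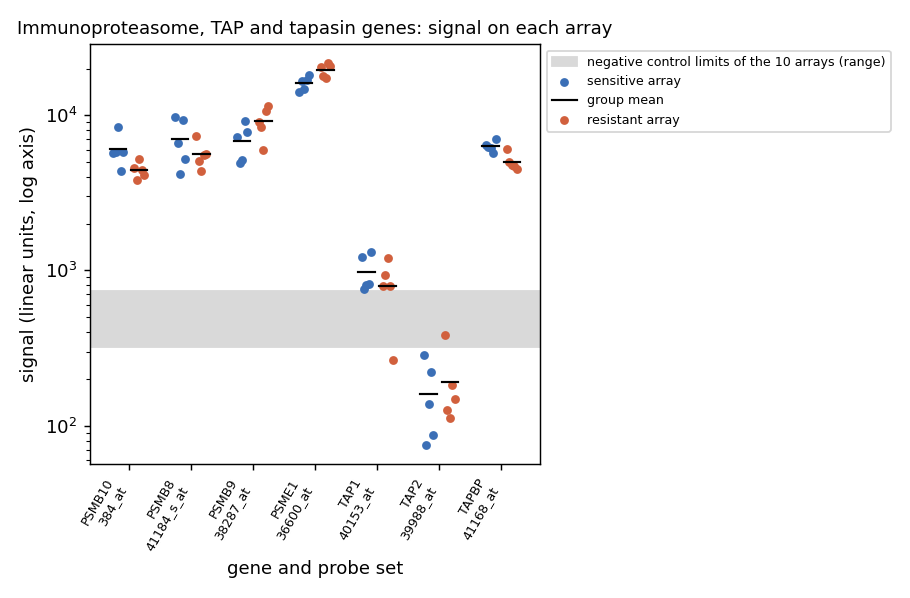
Signal of the immunoproteasome, proteasome activator, TAP and tapasin probe sets on each array (log axis), drawn as in the plot of class I chains. The groups overlap in all 7, and TAP2 lies at or below the band of limits on most arrays.

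Most class II genes were close to or below the limit. Of 13 class II chain probe sets 2 were above it on 3 or more arrays of a group, and of 7 class II loading probe sets 4. Of 20 probe sets for class II chains and class II loading factors 10 were above the limit on no array, CD74 among them. CD74, the invariant chain that occupies the class II groove before peptide, had 155 ± 89.8 and 194 ± 79.3 (log2 difference 0.21, adjusted p = 0.746). Both CIITA probe sets were above the limit on no array, with means of 125 ± 73.5 and 74.4 ± 49.6 on sensitive and 158 ± 126 and 123 ± 181 on resistant arrays. In HLA-DQB1 none of 4 probe sets was above the limit on any array. Nor was that of HLA-DRB4 (209 ± 107 and 289 ± 175, adjusted p = 0.792) or one shared by HLA-DRB genes and HLA-DQB1 (97.3 ± 101 and 118 ± 88.3, adjusted p = 0.867). The brightest class II signal was that of the probe set shared by HLA-DRB1, HLA-DRB3 and HLA-DRB5, beta chains of HLA-DR. It was above the limit on all 10 arrays, at 1258 ± 300 and 1341 ± 717 (log2 difference -0.03, adjusted p = 0.985).

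HLA-DMA, the alpha chain of the factor that exchanges CD74-derived peptide for antigen, was the class II gene with a called and measurable difference. Sensitive arrays gave 89.6, 420, 82.8, 481 and 74.0, none above its limit. Resistant arrays gave 974, 615, 869, 1036 and 1371, all above theirs. The difference was 1.82 on the log2 scale (SE 0.37, adjusted p = 0.00839), kept under all 18 alternatives at adjusted p-values of up to 0.0351. As a bound against the limit, resistant arrays were at least 1.94-fold higher. Its partner HLA-DMB gave 430, 246, 453, 831 and 513 on sensitive arrays. It gave 392, 800, 515, 588 and 326 on resistant arrays, with wide overlap (log2 difference 0.09, SE 0.28, adjusted p = 0.920). HLA-DMB was above the limit on 3 sensitive and 2 resistant arrays. The difference between both HLA-DM chains was not tested.

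HLA-DRA, the alpha chain of HLA-DR, gave 602, 375, 957, 428 and 276 on sensitive arrays, 2 of them above the limit. It gave 973, 708, 936, 845 and 882 on resistant arrays, all above it. The groups overlapped through sensitive replicate 3, and the log2 difference of 0.70 (SE 0.26) was not called (adjusted p = 0.153). Without that array it was 0.91 and called (adjusted p = 0.0241). HLA-DPB1, a beta chain of HLA-DP, was called in 1 probe set, at 122 ± 22.3 and 287 ± 74.8 (log2 difference 0.74, SE 0.19, adjusted p = 0.0309). No array was above the limit in that probe set, so no fold is given. The other probe set, equally dim, had a difference of the opposite sign, -0.58 (adjusted p = 0.334). The first call was lost under 12 of 17 alternatives, 7 of them with 1 array left out (adjusted p of up to 0.0780 there). For HLA-DPA1, HLA-DQA1 and HLA-DRB6 the differences were -0.18, -0.58 and -0.45 on the log2 scale (adjusted p = 0.893, 0.423 and 0.660). HLA-DOA and HLA-DOB form HLA-DO, which inhibits HLA-DM. The brightest of 3 HLA-DOA probe sets had 690 ± 383 and 914 ± 272 (log2 difference 0.50, adjusted p = 0.568), and HLA-DOB had 712 ± 164 and 660 ± 183 (log2 difference -0.11, adjusted p = 0.878). Both were above the limit on 4 sensitive and 5 resistant arrays.

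**Figure D4:**
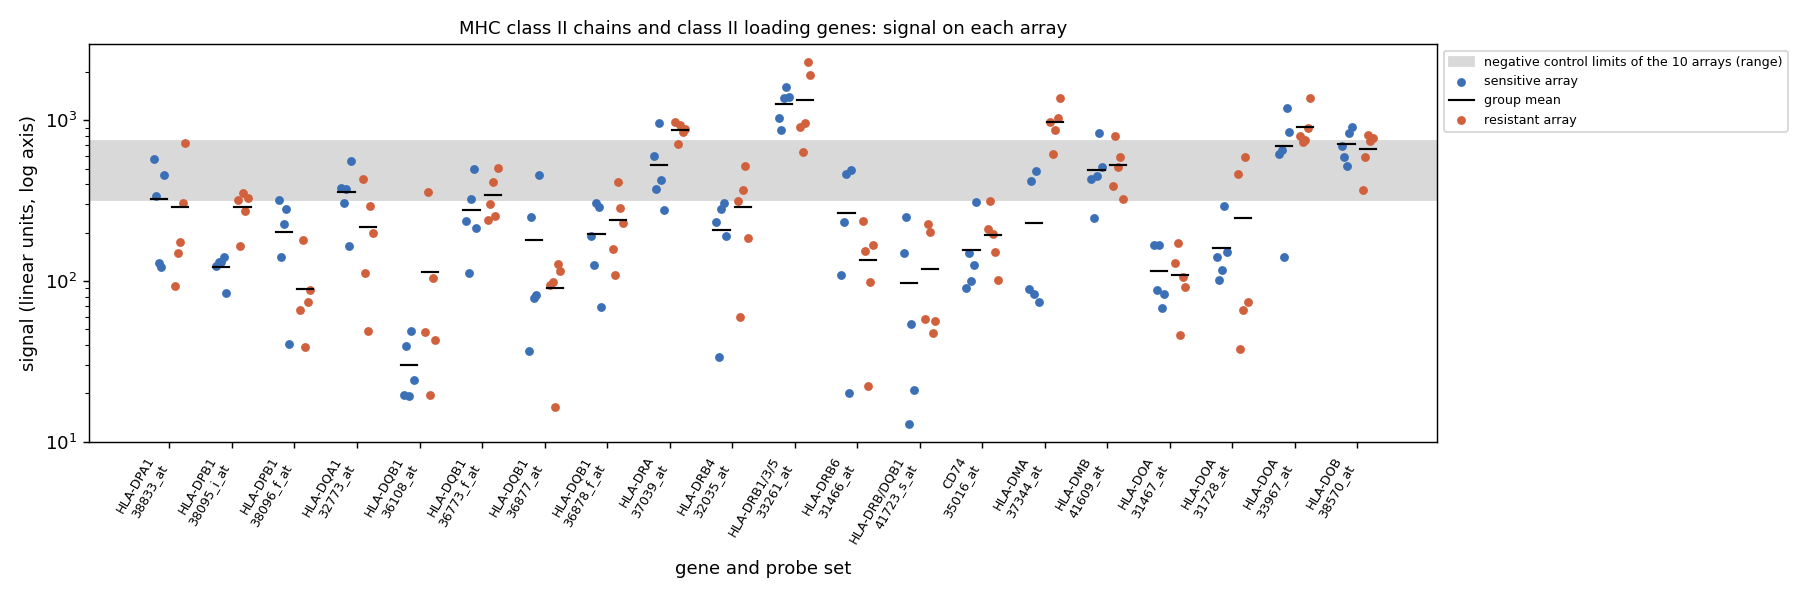
Signal of each class II chain and class II loading probe set on each array (log axis), drawn as in the plot of class I chains. Most points lie in or below the band of limits, and HLA-DMA is set apart by resistant arrays at 615 to 1371 over sensitive arrays at 74.0 to 481.

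Since class II genes mark professional presenting cells, markers of such cells were read on the same arrays. None of 6 monocyte or dendritic cell markers exceeded the limit on 3 or more arrays of a group. CSF1R was above it on 1 resistant array, CD163 on 1 sensitive array, and 4, CD14 among them, on none. The summed signal of the 6 was 485 to 1935 on sensitive and 853 to 1812 on resistant arrays. Of 7 B cell markers 2 passed that criterion, CD79A (3 sensitive arrays and 1 resistant) and CD22 (2 and 3). PAX5 was above the limit on 2 sensitive arrays and no resistant one, with a log2 difference of -0.85 (adjusted p = 0.348). MS4A1, CD79B, BLK and CR2 were above it on no array. The B cell sums were 815 to 2144 and 974 to 2224. Of 7 T cell markers CD3E passed (sums 1285 to 2158 and 910 to 2325), and of 5 natural killer cell markers PRF1 (690 to 2626 and 1294 to 2277). None of the markers of these 4 lists was called, and the sums of both groups overlapped in each list. Most signals in these sums lay under the limit, so their overlap cannot decide whether such cells were present or differed between the groups.

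CIITA and the transcription factors that bind class II promoters gave no called probe set among 8, and 0 at an unadjusted p under 0.05. RFX5, RFXAP and RFXANK form the complex on the X box, and NFYA, NFYB and NFYC form NF-Y on the Y box. RFX5 had 1783 ± 366 and 1704 ± 209 (log2 difference -0.05, adjusted p = 0.935), RFXAP 596 ± 128 and 552 ± 185 (adjusted p = 0.868). RFXANK was above the limit on no array. NFYA had 3455 ± 322 and 3362 ± 666, NFYB 7426 ± 858 and 7089 ± 1973, and NFYC 1915 ± 607 and 1779 ± 472, with log2 differences of -0.05, -0.10 and -0.09 (adjusted p = 0.926, 0.878 and 0.913). For these bright factors the standard errors of 0.18, 0.22 and 0.25 limit what could have been seen.

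Class I like molecules present lipids, metabolites or stress. CD1D, which presents lipids to natural killer T cells, gave 169, 12.8, 63.4, 53.8 and 280 on sensitive arrays. It gave 326, 364, 313, 591 and 284 on resistant arrays, all higher than every sensitive one, though only 1 array was above its limit. The log2 difference was 1.18 (SE 0.30, adjusted p = 0.0347). No fold is given, and the call was lost under 12 of 17 alternatives, 8 of them with 1 array left out (adjusted p of up to 0.0856 there). CD1A, CD1B, CD1C and CD1E were dim, with log2 differences of 0.46, -0.55, -0.71 and -0.66, none called (lowest adjusted p = 0.264). MICA and MICB are ligands of the activating receptor NKG2D. MICB was bright, at 8070 ± 1951 and 8380 ± 988 (log2 difference 0.08, adjusted p = 0.901), and MICA had 651 ± 205 and 746 ± 280 (adjusted p = 0.871). MR1, which presents microbial vitamin metabolites, is read by 3 probe sets, whose differences were 0.02, -0.19 and -0.54 (adjusted p = 0.989, 0.863 and 0.301). HFE, a regulator of iron uptake, was above the limit on 1 array, with 242 ± 87.4 and 294 ± 215 (adjusted p = 0.990).

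Further genes of the pathway came from a list of regulators, loading factors, proteasome subunits, proteases and neighbours that left 70 measured genes, each read by its brightest probe set. Of these 6 were called higher and 2 lower, beside 4.94% and 3.46% of all 8226 genes. The list was chosen with earlier results of these data known, so these counts do not test the pathway. The list was also bright for the most part, with 54 of the 70 genes above the limit on 3 or more arrays of a group. Of all probe sets as bright, 6.78% were called higher and 4.75% lower. Among 18 upstream regulators SOCS1, a feedback inhibitor of JAK kinases, rose from 784 ± 286 to 3776 ± 1380 (log2 difference 2.08, adjusted p = 0.00171). JAK1, a kinase of interferon receptors, rose from 4901 ± 664 to 10156 ± 2865 (log2 difference 1.01, adjusted p = 0.0103). SOCS1 was called in 1 of 2 probe sets and JAK1 in 1 of 3, and the uncalled ones had positive differences of 0.50 to 0.84. The interferon-regulated factor IRF1, an activator of class I genes, had 1402 ± 243 and 1675 ± 541 (log2 difference 0.21, adjusted p = 0.702). IFNGR1, a chain of the interferon gamma receptor, had a log2 difference of 0.43 (adjusted p = 0.249).

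Of 7 genes of peptide loading and trimming P4HB, a protein disulfide isomerase of the endoplasmic reticulum, fell from 71182 ± 8283 to 18940 ± 3016 (log2 difference -1.91, adjusted p = 2.85e-05). It was called in 2 of its 3 probe sets. The third was above the limit on no array and had a positive difference of 0.34 (adjusted p = 0.662). CALR, the calreticulin of the loading complex, gave 10302, 13830, 8813, 9439 and 16127 on sensitive arrays. It gave 8570, 7818, 6451, 6285 and 7037 on resistant arrays, all lower (log2 difference -0.66, adjusted p = 0.0899), and was not called. PDIA3, its partner ERp57, had a log2 difference of -0.47 (adjusted p = 0.285) and CANX, calnexin, -0.27 (adjusted p = 0.479). HSPA5 had -0.68 (adjusted p = 0.137) and BCAP31 -0.22 (adjusted p = 0.562). ERAP1, above the limit on no array, had a positive difference of 0.45 (adjusted p = 0.606). None of 15 constitutive proteasome subunits or regulators was called by limma, and 1 had an unadjusted p under 0.05, PSMA7. PSMB5, PSMB6 and PSMB7, which the immunoproteasome subunits replace, differed by 0.04, -0.20 and 0.05 on the log2 scale (adjusted p = 0.950, 0.630 and 0.918).

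In class II antigen processing CTSL, an endosomal protease that degrades the invariant chain in some cells, rose from 315 ± 176 to 7633 ± 1408 (log2 difference 4.24, adjusted p = 1.13e-06), the only call among 8 genes. CTSL was above the limit on 1 of 5 sensitive arrays and on all 5 resistant ones, so the size of its rise is uncertain. CTSS, the protease that degrades the invariant chain in B cells, had 126 ± 120 and 180 ± 95.9 (adjusted p = 0.690). Among 10 genes of co-stimulation and adhesion ICAM1, a ligand of the T cell integrin LFA-1, was called higher (adjusted p = 0.00844). It was above the limit on no sensitive array and on 3 of 5 resistant arrays. Its bound of 1.60-fold therefore includes resistant signals under the limit. ICAM3, another ligand of LFA-1, was at least 8.38-fold lower (4468 ± 541 and 134 ± 163, adjusted p = 3.24e-06). Of 12 class I like or MHC-linked genes FCGRT, the heavy chain of the neonatal Fc receptor that also pairs with B2M, rose from 672 ± 414 to 2458 ± 848 (log2 difference 1.80, adjusted p = 0.00927). In that probe set 2 of 5 sensitive arrays were above the limit. FCGRT was called in both of its probe sets, in the second only just (adjusted p = 0.0487) and with overlapping groups. AIF1, a gene of the MHC region, rose by 0.99 (adjusted p = 0.0268) in 1 of its 3 probe sets, a call lost under 8 of 18 alternatives, 6 of them with 1 array left out (adjusted p of up to 0.0738 there).

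Most of these genes lie in 1 stretch of chromosome 6, and the gene table (GRCh38.p14) was used only for their order. Between HLA-F and TAPBP 71 further genes were measured, with a median log2 difference of 0.06. Of these 4 were called higher (FLOT1, IER3, AIF1 and DDAH2) and 1 lower (HSPA1L), beside 4.94% and 3.46% of all genes. HSPA1L was above the limit on no array, and the groups of IER3 (adjusted p = 0.0452) and AIF1 overlapped. FLOT1, IER3, DDAH2 and HSPA1L were not read under the alternatives. HLA-E ranked as the 12th of 92 measured genes from the HLA-F end, and HLA-DMA lay in the class II part. The genes next to HLA-E (TRIM26 and GNL1) and to HLA-DMA (HLA-DMB and BRD2) were not called. FLOT1 and IER3, both called, were neighbours.

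**Figure D5:**
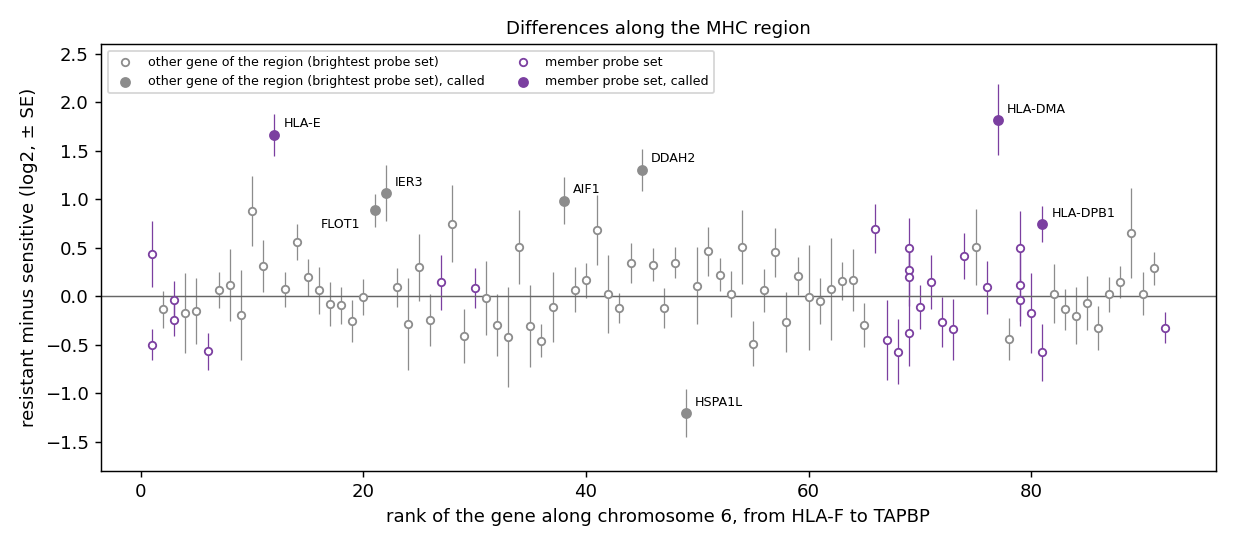
Resistant minus sensitive difference (log2, bars are standard errors of the limma fit) against the rank of each gene along chromosome 6 from HLA-F to TAPBP; purple points are probe sets of the genes described here, grey points other genes, and filled points are called. Probe sets with several symbols are not drawn, and HLA-E and HLA-DMA stand between uncalled neighbours, while FLOT1 and IER3 are called side by side.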

How the data were processed

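Total RNA of each sample was copied into biotin-labelled cRNA and hybridised to 1 array, per the labels' protocols. The values are signal intensities on a linear scale, and the submitters' processing notes name MAS5, with version and settings not given in the sources used here. Deposited intensity values were already on a common scale. Of 12625 probe sets, 67 controls were left out. Arrays were scaled to a common 2% trimmed mean, log2(signal + 114.8) was taken (114.8 is the 20th percentile of all signals), and groups, taken from the sample titles, were compared in limma 3.58.1 (lmFit, eBayes; R 4.3.3) without a covariate. The pseudocount makes log2 differences of dim probe sets smaller than the true change. Names came from the platform annotation: 10943 probe sets had 1 symbol, 545 several and 1070 none, and 10934 of the first matched the gene table of GRCh38.p14 by Entrez identifier. Genes outside the 56 probe sets were read by the probe set of highest mean log2 signal. Where no array of 1 group was above the limit, a bound compares the bright group's mean with the higher of limit and signal in the dim group. The members and lists were chosen with earlier results of these data known. Named were all called probe sets of the set, its main genes, called genes of the pathway list, and markers called or above the limit on at least 3 arrays of a group. CALR, PDIA3, CANX, HSPA5, BCAP31, ERAP1, IRF1, IFNGR1, CTSS, PSMA7, PSMB5, PSMB6 and PSMB7 were added after their values were seen. So were the markers that did not reach that criterion and the genes of the MHC region. The fit was tested on simulated data, but the outcome is not given here and nothing above rests on it. The number of arrays limits the precision.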

Additional observations from a re-analysis of the deposited data

Results flagged for a closer look

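In 128 groups of 5 arrays, 8 (6.25%) held an array that stood far from the other 4 on the log2 scale, where chance gives about 1 in 20. On sensitive replicate 1 the probe set shared by HLA-B and HLA-C gave 23192, against 14215 to 15480 on the other sensitive arrays. On sensitive replicate 5 the called HLA-DPB1 probe set gave 84.1 (others 124 to 141), and RFXANK gave 427 (others 34.1 to 67.1). On resistant replicate 4 a CIITA probe set gave 445 (others 23.0 to 58.5), below that array's limit of 739.8. On resistant replicate 2 RFXAP gave 876 (others 404 to 500.3) and ICAM3 gave 422 (others 29.2 to 86.9). On resistant replicate 1 an MR1 probe set gave 51.5 (others 370 to 635), and on resistant replicate 3 an HLA-DQB1 probe set gave 16.4 (others 94.4 to 127).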

How the results depend on the processing

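HLA-E and HLA-DMA kept their calls under all 18 alternatives, as did JAK1, SOCS1, P4HB, CTSL, ICAM1, ICAM3 and FCGRT. The count called higher was 2 under 9 alternatives, 3 under 7 and 4 under 2: it was 2 with scaling to a common median, with the filter on dim probe sets (which leaves out HLA-DPB1 and CD1D), with an intensity trend and with the replicate block, and 2 to 4 with 1 array left out. The count called lower was 0 under 14 alternatives, 3 with the larger pseudocount, with the filter and with the intensity trend, and 1 with array weights. Of the further pathway genes, 2 called lower became 4 with the larger pseudocount, the filter, the intensity trend or the mean of all probe sets, and 3 with quantile normalization, common median or array weights (2 to 3 with 1 array left out). Scaling to a common median moved the median difference of all probe sets from 0.03 to -0.07, and lost HLA-DPB1 and CD1D. Whether equal replicate numbers mark paired arrays was not settled. Same-number correlations between deviations were 0.01 to 0.12, and the highest with another number, per sensitive array, were 0.0023 to 0.14. The same-number value was the higher of these for replicates 1, 3 and 5 and the lower for replicates 2 and 4. The block left 794 of 931 calls in number, with HLA-DPB1 and CD1D lost. Signs turned for 19 probe sets, none of them called. They were, with quantile normalization, HLA-DMB (-0.0051), HFE (-0.045) and MR1 (-0.035); with a common median, HLA-DMB (-0.0097), HFE (-0.052), MICB (-0.050) and MR1 (-0.11); HFE (-0.092) with the smaller pseudocount; and HLA-DOA (0.032) with array weights. With 1 array left out, the lowest and highest log2 differences were -0.13 and 0.043 for HLA-G, -0.048 and 0.29 for TAP2, -0.49 and 0.021 for HLA-DPA1, -0.24 and 0.18 for the HLA-DRB1 probe set, -0.081 and 0.27 for HLA-DMB, -0.13 and 0.074 and -0.20 and 0.35 for 2 HLA-DOA probe sets, -0.20 and 0.050 for HLA-DOB, -0.10 and 0.36 and -0.23 and 0.27 for CIITA, -0.13 and 0.0083 for NFYA, -0.23 and 0.044 for NFYB, -0.20 and 0.064 for NFYC, -0.11 and 0.058 for RFX5, -0.19 and 0.31 for HFE, -0.0025 and 0.33 for MICA, -0.039 and 0.16 for MICB, and -0.12 and 0.19 and -0.35 and 0.19 for 2 MR1 probe sets. The causes were not tested. Signals near the negative control limit bound what can be said of class II and CD1 genes.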
